A study of Mus musculus with 12 samples.

Results

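Tbx2, Tbx3 and Tbx5 encode T-box transcription factors, and their promoters and surrounding landscapes were described from called ChIP-seq peaks in mouse forelimb buds. All peaks of 7 lists were taken in a pair of fixed intervals of the mm9 genome build. The first, chr5:119900000-120700000, holds Tbx3, with a start near 120.12 Mb, and Tbx5, with a start near 120.28 Mb. The second, chr11:85500000-85680000, holds Tbx2. These windows held 358 of 189536 peaks, 249 in the Tbx3-Tbx5 window and 109 in the Tbx2 window.

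The study profiled distal forelimb tissue of E11.5 embryos on a mixed C57BL/6 - CD1 background, in Hoxa13-/-;Hoxd13-/- double mutants and in wild type. Acetylation of histone H3 at lysine 27 (H3K27ac) and its trimethylation (H3K27me3) were mapped in both genotypes, and HOXA13 and HOXD13 binding in wild type. H3K27me3 was also mapped in forelimb buds of E10.5 CD1 embryos. Of the 12 samples, 7 were immunoprecipitated libraries with a peak list and 5 were inputs, with 1 library in each group. The double mutant carries a neomycin cassette in the Hoxa13 coding region and a lacZ reporter in the first exon of Hoxd13, and every cell of the embryo carries both alleles. The labels do not say whether embryos were pooled. HOXA13 chromatin was cross-linked with disuccinimidyl glutarate and formaldehyde, all other chromatin with formaldehyde alone. With 1 library per group no difference between genotypes could be tested, and every difference given here is between those libraries.

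T-box factors bind a shared DNA element as activators or repressors. Tbx5 starts the outgrowth of the forelimb and activates Fgf10 there, and loss of 1 copy of the human gene causes Holt-Oram syndrome, with heart and arm defects. Tbx2 and Tbx3 are mainly repressors, expressed along the anterior and posterior margins of the mouse limb bud, and human TBX3 mutations cause ulnar-mammary syndrome. HOXA13 and HOXD13 are homeodomain factors of the most distal limb and are needed together for digits. H3K27ac marks active promoters and enhancers, and H3K27me3 marks chromatin held silent by Polycomb. In a dissected tissue, both marks on the same bases can lie in the same cells or in different ones, and these cannot be told apart here.

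The lists are of unequal length, 38115 double-mutant and 31933 wild-type H3K27ac peaks, and 18973 double-mutant and 19624 wild-type H3K27me3 peaks on autosomes. Over all chromosomes the H3K27me3 lists held 19358 peaks in the double mutant and 28875 in wild type. Since the sex of the embryos is not given, backgrounds for H3K27me3 peaks are autosomal, while those for HOX13 sites cover all chromosomes. Called H3K27ac peaks covered 73162 kb of the autosomes in the double mutant and 58514 kb in wild type, a ratio of 1.25. For H3K27me3 the lengths were 59957 kb in the double mutant and 74263 kb in wild type, a ratio of 0.807. The peak score grows with the confidence of the call and starts at 50. It orders peaks within a list, where many strong histone peaks and some HOXA13 and HOXD13 peaks share the value 3100. Scores of the genotypes printed side by side come from different lists and do not measure a difference in signal. Depth is unknown, and its part in any difference between lists was not tested.

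All 3 promoter regions, taken as 10 kb on each side of each start because the starts are known only to about 10 kb, carried both histone marks in both genotypes. In the Tbx5 promoter region H3K27ac peaks covered 82.3% of bases in the double mutant and 79.7% in wild type. In the Tbx2 promoter region they covered 80.4% in the double mutant and 80.5% in wild type, and in the Tbx3 promoter region 49% in the double mutant and 45.3% in wild type. With 20 kb on each side of the start the double mutant was ahead by 9.54 points at Tbx2 and 10.2 points at Tbx3. No H3K27ac peak of either genotype in these 3 regions lacked a partner in the other genotype.

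**Figure D1:**
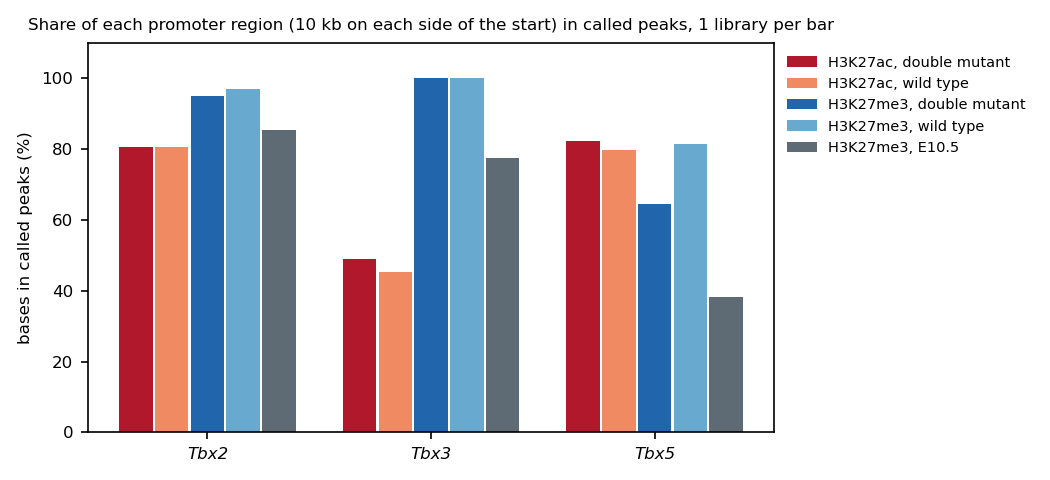
Bars give the percentage of bases of each 20-kb promoter region (10 kb on each side of the start) that lay in called peaks, with 1 library per bar. H3K27ac bars of both genotypes are within 4 percentage points at each gene, and the widest gap between E11.5 genotypes is that of H3K27me3 at Tbx5, with 64.4% in the double mutant and 81.5% in wild type. As a ratio of covered length that gap is 0.79, near the 0.807 of all autosomes.

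At Tbx3 a single H3K27ac block spanned the start, chr5:120118254-120126843 (8590 bp) in the double mutant and chr5:120117774-120126813 (9040 bp) in wild type, both with score 3100. In the double mutant a small peak lay beside it at chr5:120117107-120118130 (score 94.3), which the wild-type block partly overlapped. Another small double-mutant peak and a second wild-type peak began at the downstream edge of the region. H3K27me3 covered 100% of the Tbx3 promoter region in both genotypes, as the middle of the widest H3K27me3 domain of the window. That domain was chr5:120068976-120141540 (72565 bp) in the double mutant and chr5:120078970-120144680 (65711 bp) in wild type, and 99.8% of the double-mutant domain was covered by wild-type peaks. The wild-type call was split, with a further peak of 11177 bp at chr5:120067650-120078826 directly upstream.

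At Tbx5 the promoter region held a pair of H3K27ac peaks per genotype. The main one was chr5:120276132-120295596 (19465 bp) in the double mutant and chr5:120276247-120296244 (19998 bp) in wild type, both with score 3100, and 99.4% of the double-mutant peak was covered by the wild-type one. The smaller one, about 8 kb upstream of the start, was chr5:120270741-120273334 (2594 bp, score 339) in the double mutant and chr5:120270806-120272994 (2189 bp, score 178) in wild type. The main H3K27me3 domain of Tbx5 was chr5:120278190-120296239 (18050 bp) in the double mutant and chr5:120276249-120295400 (19152 bp) in wild type. Upstream of it the calls differed. The double mutant had 1 separate peak at chr5:120276087-120277157 (score 90), of which the main wild-type domain covered 84.9%. Wild type had peaks at chr5:120272118-120273415 (score 130) and chr5:120273437-120274688 (score 115) with no double-mutant partner. These wild-type peaks lie by the upstream acetylated peak, of which H3K27me3 covered 0% in the double mutant and 40.1% in wild type. They were 2 of the 3 wild-type H3K27me3 peaks of the region (66.7%, 20.8% to 93.9%), an interval that holds the background of 30.4%. H3K27me3 covered 12.9 kb of the region in the double mutant and 16.3 kb in wild type. That ratio of 0.79 is near the 0.807 of all autosomes.

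At Tbx2 H3K27ac was called as 2 adjoining peaks in the double mutant, chr11:85642584-85656057 (13474 bp, score 2463) and chr11:85656134-85658738 (2605 bp, score 1430). Wild type had 1 peak over the same stretch, chr11:85642617-85658710 (16094 bp, score 1504), of which 99.5% was covered by the double-mutant pair. The H3K27me3 domain across it measured 20397 bp (chr11:85636853-85657249) in the double mutant and 20694 bp (chr11:85636681-85657374) in wild type. A second H3K27me3 peak downstream was chr11:85658245-85660597 (score 633) in the double mutant and chr11:85657977-85660784 (score 1033) in wild type. H3K27me3 covered 95% of the promoter region in the double mutant and 97% in wild type. With 20 kb on each side, H3K27ac covered 49.8% in the double mutant and 40.2% in wild type, a stretch that takes in peaks called downstream of Tbx2 in the double mutant alone.

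Both marks lay largely on the same bases at these genes. Of the acetylated bases, H3K27me3 of the same genotype covered 100% in both genotypes at Tbx3, 78% in the double mutant and 91.8% in wild type at Tbx5, and 93.8% in the double mutant and 96.3% in wild type at Tbx2. Over all autosomes those shares were 8.86% in the double mutant and 9.82% in wild type. Tbx4, the hindlimb T-box gene downstream of Tbx2, was set beside these genes as a marker of the other limb. Its promoter region was 43.8% acetylated in the double mutant and 17.6% in wild type. H3K27me3 lay over 63.9% in the double mutant and 63.8% in wild type. The gene of the other limb was thus less covered by H3K27ac than Tbx5 but was not without it. In the double mutant its H3K27ac share came near the 49% of Tbx3. H3K27me3 covered no more of it than of Tbx5, where the shares were 64.4% in the double mutant and 81.5% in wild type. With both marks at both genes and no expression values, these shares could not settle limb identity.

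HOX13 sites, the union of overlapping HOXA13 and HOXD13 peaks, were unevenly placed among these promoters. The Tbx5 promoter region overlapped 5 sites, each with both factors, at about 9, 7 and 2 kb upstream and 3 and 10 kb downstream of the start. Their HOXA13 scores were 255, 185, 122, 282 and 393, and their HOXD13 scores 84, 179, 97.8, 257 and 410. The Tbx3 promoter region had 1 site of HOXD13 alone (chr5:120120295-120121943, score 175). The Tbx2 promoter region had 1 HOXA13 site (chr11:85644130-85644963, score 84) and 1 HOXD13 site (chr11:85645681-85646660, score 61.7), which did not overlap each other and stood at ranks 21573 of 31044 and 19844 of 22655 in their lists. All of these promoter sites lay in H3K27ac in both genotypes.

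**Figure D2:**
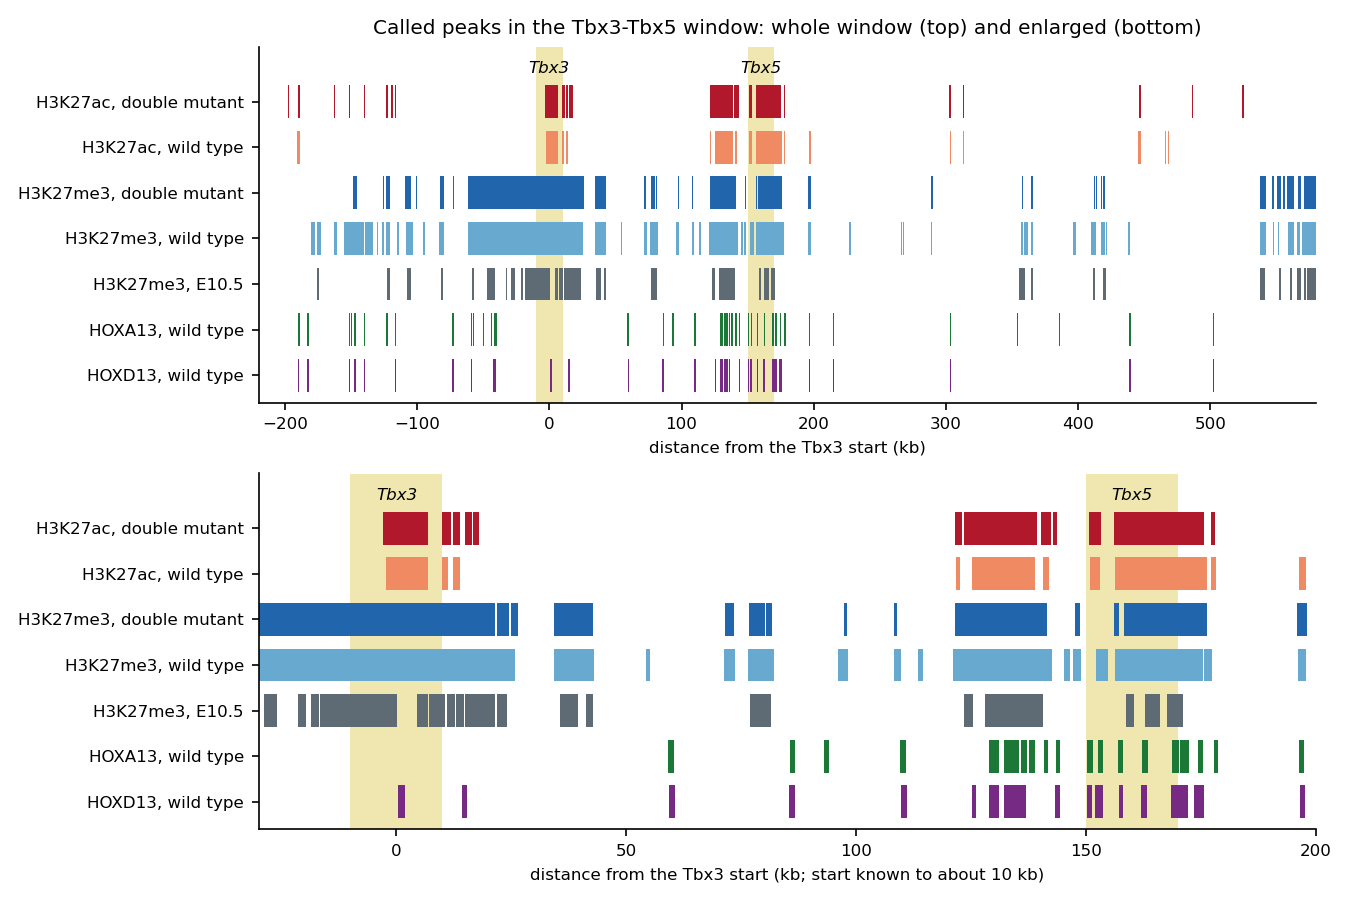
Horizontal position is distance from the Tbx3 start in kb, each row is 1 peak list, each bar a called peak to scale, and the shaded bands are the promoter regions. The upper panel shows the whole window and the lower one the stretch from 30 kb upstream of Tbx3 to 200 kb downstream. Upstream of Tbx3 the double mutant has 8 H3K27ac peaks and wild type 1, while H3K27me3 bars are fewer in the double mutant.

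Across the whole Tbx3-Tbx5 window the double mutant had 27 H3K27ac peaks over 74.4 kb, against 16 peaks over 59.5 kb in wild type. The ratio of covered length, 1.25, is that of all autosomes. H3K27me3 made 43 peaks over 194 kb in the double mutant and 51 peaks over 251 kb in wild type, a ratio of 0.775 beside the autosomal 0.807. The window as a whole thus differed between the libraries by about as much as the rest of the genome.

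Among the 27 H3K27ac peaks of the double mutant, 12 lacked a partner in wild type (44.4%, Wilson 95% interval 27.6% to 62.7%), where 30.1% of the whole list lacked one. Among the 16 of wild type, 3 lacked a partner (18.8%), where 15.1% of the whole list lacked one. Among the 43 H3K27me3 peaks of the double mutant, 5 lacked a partner (11.6%, background 15.8% of the autosomal list). Among the 51 of wild type, 19 lacked one (37.3%, 25.3% to 51%, background 30.4%). All 4 intervals hold the share of their whole list, but under other settings some lay above it. For double-mutant-only H3K27ac these were 14 of 27 when an overlap of 50% was required (51.9%, 34% to 69.3%, background 30.8%) and 10 of 20 with neighbouring peaks joined (50%, 29.9% to 70.1%, background 26.4%). For wild-type-only H3K27me3 it was 20 of 41 with scores of 100 or more (48.8%, 34.3% to 63.5%, background 29.9%). The peaks called in 1 genotype were also weaker, with a median score of 80.9 for the 12 double-mutant H3K27ac peaks and 206 for the 15 shared ones.

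**Figure D3:**
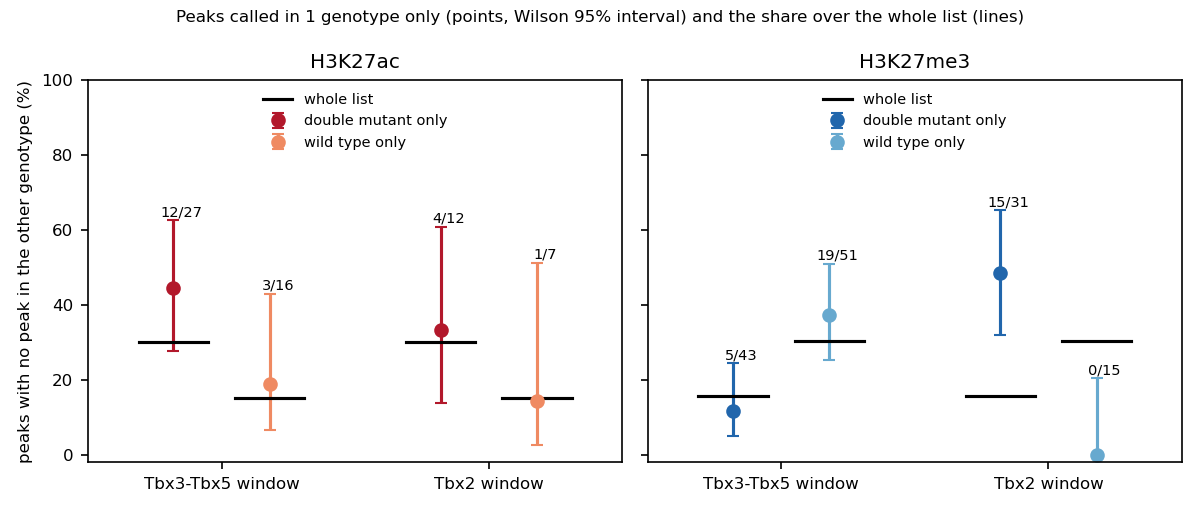
Points give the percentage of a window's peaks with no overlapping peak of the same mark in the other genotype, with Wilson 95% intervals for the counting of peaks, the counts printed above and black lines at the share over the whole list (H3K27ac) or the autosomes (H3K27me3). At the settings plotted the intervals hold the black line in the Tbx3-Tbx5 window, while in the Tbx2 window H3K27me3 stands at 15 of 31 in the double mutant and 0 of 15 in wild type, on opposite sides of the lines.

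Of the zones around the 3 genes, the stretch upstream of Tbx3 had the most H3K27ac peaks called in 1 genotype only. Here H3K27ac covered 8.69 kb in the double mutant, in 8 peaks, and 1.79 kb in wild type, in 1 peak. Of these 8 peaks, 7 were called in the double mutant only (87.5%, 52.9% to 97.8%, background 30.1%), with scores of 52.3 to 170, and the zone was picked out after its values were seen. The strongest were chr5:119996513-119997675 (score 170), about 123 kb upstream of Tbx3, and chr5:119968216-119969546 (score 105), about 151 kb upstream. HOX13 sites overlapped 4 of the 7, and wild-type H3K27me3 overlapped 4. In the whole window, HOX13 sites overlapped 6 of the 12 double-mutant-only H3K27ac peaks and 8 of the 15 shared ones of that list. Neither overlap was computed over the whole list. When peaks with scores under 100 were set aside, 2 of 3 were called in the double mutant only (66.7%, 20.8% to 93.9%, background 24.2%). That interval holds the background, and 5 of the 7 calls had scores under 100.

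H3K27me3 in the same stretch covered 66 kb in the double mutant and 96.7 kb in wild type, a ratio of 0.682 beside the autosomal 0.807. Of its 15 wild-type peaks, 7 lacked a double-mutant partner (46.7%, 24.8% to 69.9%), an interval that holds the background of 30.4%. Outside the Tbx3 domain, the widest wild-type peak of the stretch measured 15110 bp, chr5:119965021-119980130 (score 3100). Double-mutant H3K27me3 covered 18.9% of it, with 1 peak of 2858 bp at chr5:119971852-119974709 (score 553). Next to it, wild type had a peak of 5933 bp at chr5:119980606-119986538 (score 1859) of which the double mutant covered 0%. E10.5 H3K27me3 covered 0% of both wild-type peaks. The 15110-bp peak held 4 HOX13 sites, 3 of them with both factors. At the first of these (chr5:119968271-119969509, HOXA13 score 305, HOXD13 score 132) and the last (chr5:119979430-119980886, 373 and 261) H3K27ac was called in the double mutant, with scores of 105 and 52.3, and not in wild type. At the middle one (chr5:119972274-119973446, 297 and 172) neither genotype had H3K27ac, and it lay in the 2858-bp H3K27me3 peak of the double mutant.

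The next by score among wild-type H3K27me3 peaks with no double-mutant partner were of middling score. Upstream of Tbx3 they were chr5:119940032-119942412 (419, top 38.4% of its list), chr5:119944168-119947008 (222, top 51.3%) and chr5:120004508-120006257 (200, top 53.8%). Another was chr5:120516240-120518528 (336, top 42.3%), about 237 kb downstream of the Tbx5 start. The 5 double-mutant H3K27me3 peaks with no partner were all weak, with scores of 51.3 to 145. They lay upstream of Tbx3 at chr5:120018998-120019844 and chr5:120047481-120048125, and at the far end of the window at chr5:120671970-120673243, chr5:120675262-120676218 and chr5:120688102-120689047.

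Just downstream of the Tbx3 start, inside the H3K27me3 domain, a pair of H3K27ac peaks were called in the double mutant alone. They were chr5:120134991-120136527 (score 308), which touches a HOXD13 site, and chr5:120136622-120137934 (score 186), which touches none. These were the strongest double-mutant-only H3K27ac peaks of the window apart from chr5:120644048-120645813 (score 218), about 365 kb downstream of the Tbx5 start and outside H3K27me3 and HOX13 sites.

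The stretch between Tbx3 and Tbx5 was dominated by a block of H3K27ac about 29 kb upstream of the Tbx5 start. It measured 15838 bp (chr5:120243433-120259270) in the double mutant and 13576 bp (chr5:120245233-120258808) in wild type, and the wild-type block lay wholly within the double-mutant one. H3K27me3 coincided with it, over 19912 bp (chr5:120241556-120261467) in the double mutant and 21459 bp (chr5:120241084-120262542) in wild type, and covered 100% of the acetylated block in both genotypes. The double-mutant block held 5 HOX13 sites, 3 of them with both factors. The strongest by HOXD13 score in the window was chr5:120252078-120255531, with a HOXA13 score of 405 and a HOXD13 score of 682. Between the promoter regions H3K27ac covered 26.6 kb in the double mutant and 18.7 kb in wild type, and H3K27me3 52.9 kb in the double mutant and 62.1 kb in wild type. The ratios were 1.42 for H3K27ac, beside the autosomal 1.25, and 0.852 for H3K27me3, beside the autosomal 0.807.

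Downstream of the Tbx5 promoter region the order of the genotypes was the other way for H3K27ac, 12.9 kb in the double mutant and 13.9 kb in wild type. All 3 H3K27ac peaks called in wild type only lay here. The strongest, chr5:120316381-120317772 (score 141), about 37 kb downstream of the Tbx5 start, coincided with a site of both factors (chr5:120316326-120317558, HOXA13 score 171, HOXD13 score 116) and with H3K27me3 in both genotypes. The others, chr5:120587849-120589029 (94.3) and chr5:120585883-120586581 (57), touched no HOX13 site.

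**Figure D4:**
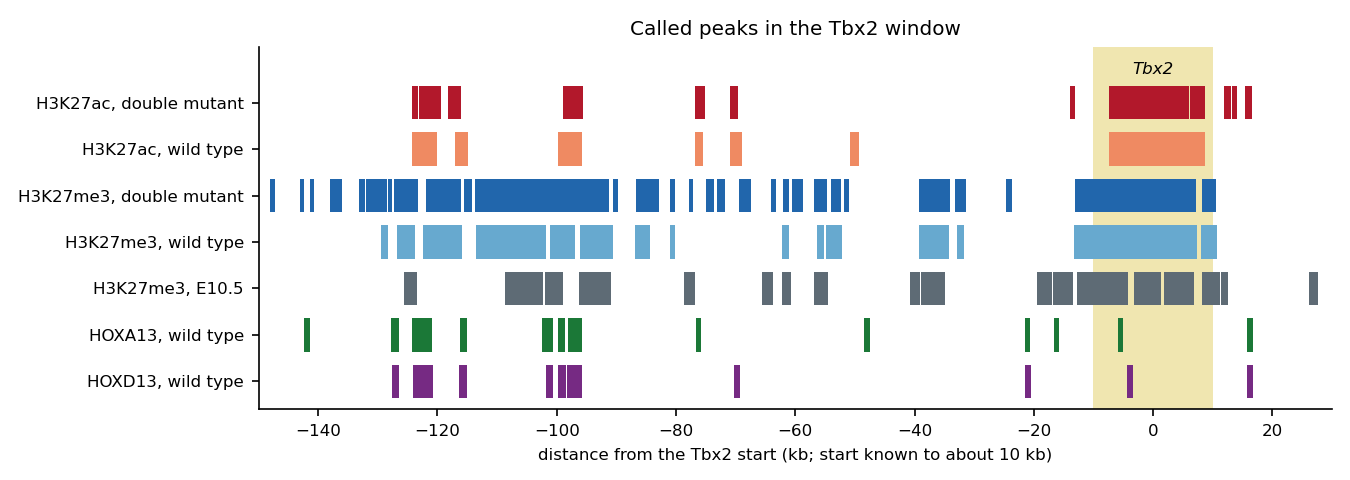
Horizontal position is distance from the Tbx2 start in kb, each row is 1 peak list, each bar a called peak to scale, and the shaded band is the promoter region. Between 150 and 10 kb upstream the double-mutant H3K27me3 row is fuller than the wild-type row, 74.1 kb against 50.1 kb, while both H3K27ac rows have blocks at the same places.

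The Tbx2 window showed H3K27me3 in the opposite order from the autosomes as a whole. It had 31 peaks over 93.7 kb in the double mutant and 15 peaks over 70.3 kb in wild type, a ratio of 1.33, where the autosomes gave 0.807. The excess lay upstream of the promoter region, 74.1 kb in the double mutant and 50.1 kb in wild type (ratio 1.48). In the double mutant 15 of the 31 peaks stood without a wild-type partner (48.4%, 32% to 65.2%, background 15.8%), all of them upstream. In wild type 0 of the 15 peaks did so, where the autosomal share was 30.4%.

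The strongest double-mutant-only H3K27me3 peaks were chr11:85580555-85582548 (score 262), chr11:85511903-85513951 (242), chr11:85589451-85591306 (206), chr11:85534482-85535873 (135) and chr11:85576871-85578200 (132). These 5 are narrow and of middling score. All 15 together had a median score of 74.4, against 475 for the 16 shared peaks of the double mutant. HOX13 sites overlapped 5 of the 15 and 5 of the 16 shared ones, and neither overlap was computed over the whole list. The wide domains were shared instead. Beside the one at the promoter, the widest were chr11:85536222-85548128 (11907 bp) in the double mutant and chr11:85536422-85548184 (11763 bp) in wild type. The next were chr11:85548172-85558746 (10575 bp) in the double mutant, where wild type was called in pieces, and chr11:85527579-85534059 (6481 bp) in wild type, of which the double mutant covered 92.8%.

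H3K27ac of the Tbx2 window was close between genotypes in covered length, 12 peaks over 33.2 kb in the double mutant and 7 peaks over 31.2 kb in wild type. The ratio of covered length was 1.06, where all autosomes gave 1.25. The double mutant had 4 peaks with no partner (33.3%, background 30.1%) and wild type 1 (14.3%, background 15.1%), chr11:85599261-85600700 (score 72.6). Of the 4, 3 lay in a cluster just downstream of the Tbx2 promoter region, at chr11:85661915-85663010 (127), chr11:85663218-85663987 (53.4) and chr11:85665438-85666667 (143), where wild type had 0 peaks. The last of these coincided with a site of both factors (chr11:85665706-85666801, HOXA13 score 128, HOXD13 score 105). The other was chr11:85636128-85636861 (62), upstream of the promoter region.

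The Tbx3-Tbx5 window held 42 HOX13 sites, 27 with both factors, 12 with HOXA13 alone and 3 with HOXD13 alone. The Tbx2 window held 15, of which 8 had both factors. Both factors met at 58.0% of all 33743 sites. The density was 5.25 sites per 100 kb in the Tbx3-Tbx5 window and 8.33 in the Tbx2 window, and 1.39 over all autosomes.

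**Figure D5:**
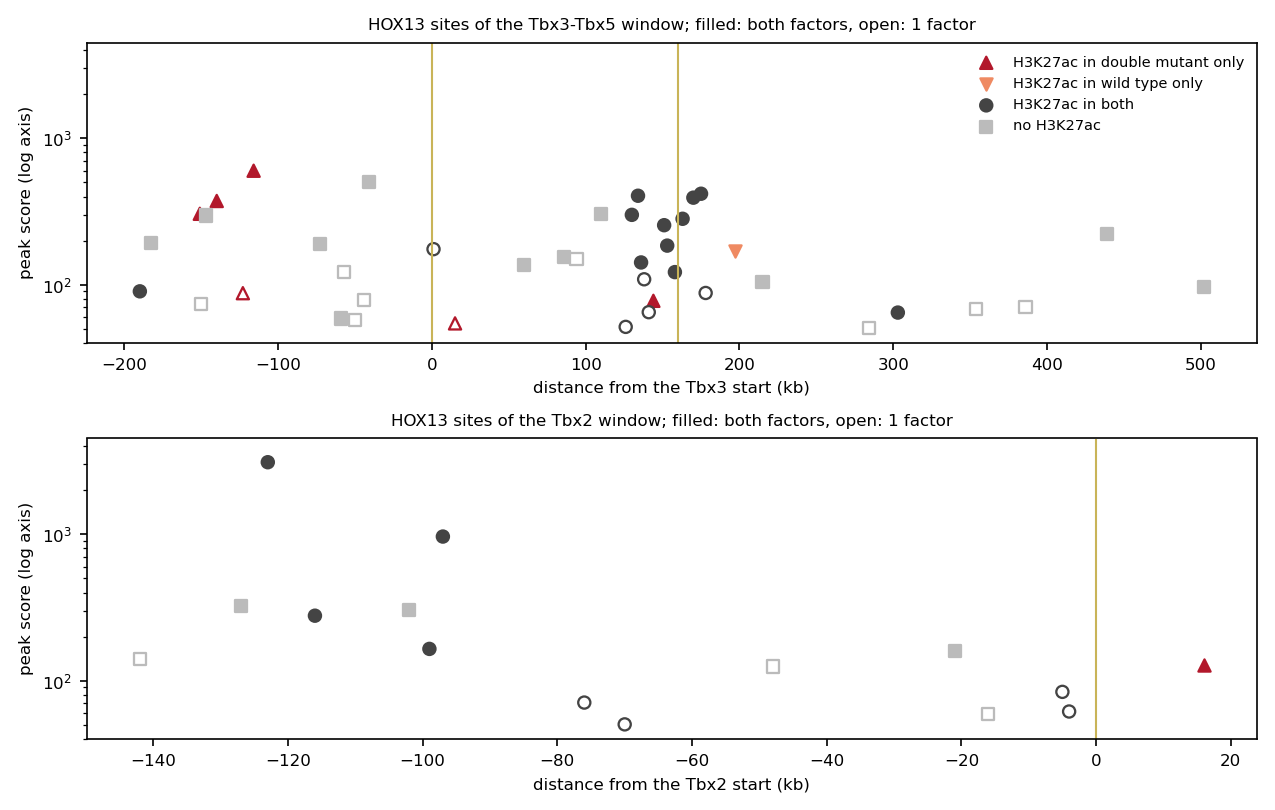
Each point is a HOX13 site at its distance in kb from the Tbx3 start (upper panel) or the Tbx2 start (lower panel), with its HOXA13 score, or its HOXD13 score where HOXA13 was not called, on a log axis. Filled points have both factors, colours and shapes give H3K27ac by genotype, and vertical lines mark gene starts. The site at 3100 about 123 kb upstream of Tbx2 stands above all others, and sites acetylated in both genotypes gather around Tbx5.

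The highest-scoring site of these windows was in the Tbx2 window, chr11:85525790-85529179, about 123 kb upstream of the start. Its HOXA13 score of 3100 put it at rank 11 of 31044, a tied rank, since 68 HOXA13 peaks share that score. Its HOXD13 score of 3050 put it at rank 68 of 22655. H3K27ac was called there in both genotypes. The double mutant had a peak of score 573 (chr11:85526930-85530545), in the top 34.1% of its list, and a small one beside it (chr11:85525717-85526735). Wild type had 1 peak of score 1769 (chr11:85525799-85529921), in the top 23.2% of its list. The next, chr11:85551763-85554279, about 97 kb upstream, had scores of 964 for HOXA13 and 838 for HOXD13 and was acetylated in both genotypes, with scores of 662 in the double mutant and 864 in wild type. The other 3 of the 5 highest lay close by, at chr11:85522284-85523575 (HOXA13 score 325), chr11:85547579-85549410 (303) and chr11:85533638-85535024 (278), all upstream of the second site. Of these 5 sites, 3 were acetylated in both genotypes and 2 in neither.

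In the Tbx3-Tbx5 window the highest HOXA13 score at a site of both factors was 600, at chr5:120003299-120004373, about 116 kb upstream of Tbx3. It carried H3K27ac in the double mutant only and no H3K27me3. The second, chr5:120077724-120080162 (505), about 41 kb upstream, lay inside the Tbx3 H3K27me3 domain with no H3K27ac in either genotype. Ranks 3 and 5, chr5:120293430-120295709 (418) and chr5:120288525-120292392 (393), lay in the Tbx5 promoter block, and rank 4 was the site of score 405 in the block upstream of Tbx5. Of these 5, the 3 sites at and upstream of Tbx5 were acetylated in both genotypes.

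H3K27ac overlapped 22 of the 42 sites in the double mutant (52.4%, 37.7% to 66.6%), where it overlapped 34.3% of all sites, and 17 in wild type (40.5%, 27% to 55.5%), against 37.6% of all sites. H3K27me3 overlapped 21 in the double mutant (50%, against 8.57% of all sites) and 26 in wild type (61.9%, against 11.2% of all sites). These shares of all sites include the sex chromosomes. In the Tbx2 window H3K27ac overlapped 9 of 15 sites in the double mutant and 8 in wild type, and H3K27me3 10 in the double mutant and 8 in wild type. Site by site in the Tbx3-Tbx5 window, 16 were acetylated in both genotypes, 6 in the double mutant only, 1 in wild type only and 19 in neither. Over all 33743 sites, wild-type-only acetylation was the more frequent, with 10108 sites acetylated in both, 1465 in the double mutant only, 2570 in wild type only and 19600 in neither. In the Tbx2 window the counts were 8, 1, 0 and 6. Upstream of Tbx3 alone, 5 of 14 sites were acetylated in the double mutant and 1 of 14 in wild type.

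At E10.5 H3K27me3 was already called at all 3 genes. E11.5 tissue, given for both genotypes above, had more of each promoter region in H3K27me3 peaks than E10.5 forelimb buds, where the share was 77.5% at Tbx3, 38.2% at Tbx5 and 85.2% at Tbx2. The lists as a whole had the same order. Over all autosomes E10.5 peaks covered 50189 kb, against 59957 kb in the E11.5 double mutant and 74263 kb in E11.5 wild type. The widest E10.5 peak of the Tbx3-Tbx5 window ended near the Tbx3 start, chr5:120103403-120120168 (16766 bp), and the next widest were chr5:120693055-120705591 (12537 bp) and chr5:120134910-120141460 (6551 bp). In the Tbx2 window the widest were chr11:85637173-85643716 (6544 bp), chr11:85541330-85547763 (6434 bp) and chr11:85553709-85559090 (5382 bp). The Tbx5 promoter region was covered at E10.5 by 3 peaks of low score, 98.5, 190 and 106.

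Of the 40 E10.5 peaks in the Tbx3-Tbx5 window, 1 had no double-mutant peak at E11.5 and 1 no wild-type peak, where 19.5% of the autosomal list had no double-mutant peak and 13.6% no wild-type peak. Of the 21 in the Tbx2 window, 5 had no double-mutant peak and 7 no wild-type peak. Stage cannot be told apart from strain, limb part and antibody supplier, since the E10.5 library came from CD1 forelimb buds and another H3K27me3 antibody.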

How the data were processed

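The authors deposited 1 peak list per immunoprecipitated library. The submitters' processing notes name Bowtie 0.12.7, MACS 1.4 and the mm9 build. The deposited score, read as -10 times the decimal logarithm of the caller's p-value, started at 50. It ranks peaks within a list and is not a measure of signal between lists. The lists hold no read counts, so depth is unknown, and 1 library per group gives no spread. Every list reaches beyond the length of GRCm38 chromosome 1, so the lists were kept as mm9 and no reference sequence was read by coordinate. Promoter sequences of Tbx2, Tbx3 and Tbx5 were not analysed here.

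Windows and the starts of Tbx3 and Tbx5 were set with the members. The starts of Tbx2 (85.65 Mb) and Tbx4 (85.70 Mb) are background knowledge to about 10 kb, and all 4 genes lie on the forward strand. Members, windows and alternatives were chosen with earlier results of these data known. Overlap meant 1 bp or more. Intervals are Wilson 95% intervals and cover counting error alone, not embryos. For H3K27me3 peaks the background was taken on autosomes, because the sex of the embryos is not given. Backgrounds for HOX13 sites were taken over all sites, sex chromosomes included. Peaks named were those of the promoter regions, the 5 highest-scoring of each mark called in 1 genotype only, the 5 highest-scoring sites of both factors and the 3 widest H3K27me3 peaks per list, by window. Other peaks named were chosen after their values were seen.

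Alternatives were a score of 100 or more, an overlap of 50%, lists of equal length, peaks joined or matched within 1000 bp, and promoter regions of 5 or 20 kb. Overlap counting was tested on simulated data. Python 3.11.15, numpy 2.4.6 and matplotlib 3.10.9 were used.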

Additional observations from a re-analysis of the deposited data

How the results depend on the processing

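Of 71 alternatives, 51 kept the value within 1.5 times a count or ratio, or within 5 percentage points of a covered share. With scores of 100 or more, double-mutant-only H3K27ac peaks numbered 7 of 16 in the Tbx3-Tbx5 window (43.8%, whole list 24.2%), 2 of 3 upstream of Tbx3 and 2 of 9 in the Tbx2 window, so the Tbx3-Tbx5 share stayed near its 44.4% while fewer peaks were tested. With lists of equal length they numbered 6 of 18 (33.3%, whole list 21.6%), 3 of 4 and 2 of 10. Wild-type-only H3K27ac peaks numbered 5 of 16 in the Tbx3-Tbx5 window with lists of equal length (31.2%, whole list 19.4%). In the Tbx2 window they numbered 0 of 6 with scores of 100 or more and 2 of 7 with an overlap of 50%. Double-mutant-only H3K27me3 peaks of the Tbx3-Tbx5 window numbered 2 of 24 with scores of 100 or more, 3 of 30 with joined peaks and 3 of 43 when matched within 1000 bp. Those of the Tbx2 window numbered 8 of 16 with joined peaks (50%, autosomal list 15.1%), a share close to the 48.4% reported. HOX13 sites numbered 27 and 8 with both factors required.

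The double-mutant minus wild-type difference in promoter coverage turned in direction for H3K27ac at Tbx2, 9.54 points with a 20-kb region (-0.075 with 10 kb). At Tbx3 it was 10.2 points with 20 kb and -1.46 points with scores of 100 or more (3.66 as reported). For H3K27me3 at Tbx5 it was -8.7 points with 5 kb and -22.5 points with scores of 100 or more (-17.1 as reported). The cause of these changes was not tested. The H3K27me3 length ratio of the Tbx2 window was 1.32 and 1.33 under the 2 alternatives run, added with those upstream of Tbx3 after the values were seen.

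No paired analysis was possible because each group holds 1 library, and leaving out a replicate was not run for the same reason. Unknown depth limits what a missing peak means.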

Other observations

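Acetylated bases differed between zones in how far H3K27me3 of the same genotype covered them. Between the promoter regions of Tbx3 and Tbx5 the share was 93.6% in the double mutant and 100% in wild type. Downstream of the Tbx5 promoter region it was 43.5% in the double mutant and 55% in wild type. Upstream of the Tbx3 promoter region it was 10.9% in the double mutant, of 8.69 kb, and 0% in wild type, of 1.79 kb. Upstream of the Tbx2 promoter region it was 65.2% in the double mutant and 46.9% in wild type, and in the acetylated cluster just downstream of Tbx2, found in the double mutant only, it was 0%.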
